A study of Aspergillus nidulans with 2 samples.

Results

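The SakA stress MAP kinase pathway was followed through 5 genes of the mould Aspergillus nidulans, also called Emericella nidulans: sho1 and tcsC, which stand for the sensing end, the kinase genes pbs2 and sakA, and the transcription factor gene atfA. They were found on the array as the probes whose annotated gene symbol is one of these names. Each gene had 1 probe, so 5 of 3533 probes and 5 of the 2064 genes named on the array were members, and each of the 5 had a ratio on both arrays. Mycelium of strain FGSC 26 was raised at 37 °C for 18 h in a minimal-nitrate medium (pH 6.5, 0.5% yeast extract), then moved to fresh medium that either held 0.8 mM menadione, a quinone that makes superoxide by redox cycling, or held none, and was collected 6 h later. Exposed and unexposed RNA shared each 2-colour cDNA array, 1 with menadione RNA in Cy5 (flip) and 1 with it in Cy3 (flop), which form 1 group of 2 arrays. No gene was deleted or added in either culture as far as the labels say. The 2 arrays may carry the same 2 RNA extracts, so each p-value below measures only a spread between arrays that may be technical. The arrays also differ in dye assignment, so a dye effect on a probe cannot be told apart from any other difference between them.

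In the yeast form of this pathway, a signal from the cell surface or from a histidine kinase phosphorelay passes through a chain of protein kinases to the MAP kinase Hog1. SakA is the counterpart of Hog1 and of fission yeast Sty1, enters the nucleus and works with the bZIP factor AtfA. Whether both inputs reach SakA in A. nidulans was not tested here. The pathway is known for responses to osmotic and oxidative stress and for the stress resistance of conidia in Aspergillus. The proteins are controlled largely by phosphorylation, which was not measured here, and every value is a ratio of transcript levels. In whole mycelium, a change in RNA per cell and a change in the share of cells that make the transcript cannot be told apart.

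The deposited values do not state their direction or the base of the logarithm. They were read as log2 ratios of menadione over untreated, so "higher" means higher with menadione; the opposite direction would exchange higher and lower throughout. The 2 columns correlated with a Pearson r of 0.844 across 2265 probes, which are not independent replicates. If each column instead held red over green, the dye exchange would turn the sign of one column against the other. The difference of the columns divided by 2 would then be the ratio with menadione: 0.685 or its negative for pbs2, and values between -0.315 and -0.025, or their negatives, for the other 4 genes. Under that reading a response to menadione would have opposite signs in the 2 columns, whereas the columns correlated positively. With the flop sign turned, 2 probes had an unadjusted p under 0.05 by limma and 0 passed an adjusted p of 0.05. These low counts follow from the positive correlation, because turning 1 sign brings the means nearer to 0. They add nothing on the direction, and which reading holds was not tested.

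With menadione, the sakA transcript was higher on both arrays and was the only member to pass the test across all probes. The pbs2 probe had the highest mean ratio of the 5, but its 2 values were far apart. The ratios of tcsC and atfA were close to 1.5-fold higher on both arrays without passing, and that of sho1 had opposite signs on the arrays. By limma with Benjamini-Hochberg adjustment over 2265 probes, 1 of 5 members passed an adjusted p of 0.05, where 24.6% of all probes did in either direction. The call was in the higher direction, which 12.2% of probes passed, and 0 of 5 passed in the lower direction, where 12.4% did. At an unadjusted p under 0.05, 4 of 5 members were higher, against 23.7% of all probes. The median of the 5 mean log2 ratios was 0.635, beside 0.035 for all probes with both values and 0.07 for the 275 probes of genes with a symbol.

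**Figure D1:**
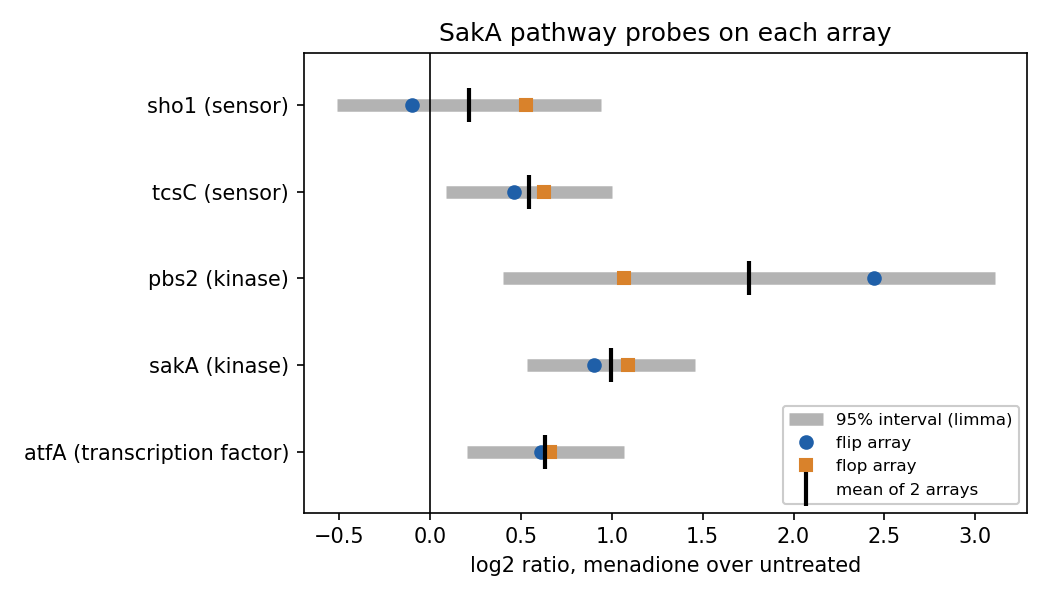
Log2 ratio of menadione over untreated (x axis) for the 5 probes of the SakA pathway, ordered from sensor to transcription factor. Circles are the flip array, squares the flop array, vertical ticks the mean of 2 arrays and grey bars the 95% interval from limma; sakA lies at 0.90 and 1.09, while the pbs2 values lie 1.37 apart and the sho1 interval spans 0.

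At the sensing end, sho1 is named for the yeast membrane protein that passes osmotic signals to the kinase Pbs2. Its log2 ratio was -0.10 (flip) and 0.53 (flop), a mean of 0.215 ± 0.45 (SD, n = 2). The arrays thus disagreed on direction, and the limma 95% interval ran from -0.51 to 0.94 (adjusted p = 0.503), or from 0.701-fold to 1.92-fold. Of all probes, 44.3% lay below sho1 in the flip column and 69.1% in the flop column, so it stood near the middle of the first and above it on the second.

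The other sensor gene, tcsC, encodes a hybrid histidine kinase, whose counterpart in Aspergillus fumigatus acts upstream of SakA. Its log2 ratio was 0.46 on the flip and 0.63 on the flop array. The mean of 0.545 ± 0.12 (SD, n = 2) is a 1.46-fold higher level, with a 95% interval of the log2 ratio from 0.09 to 1.00, and did not pass the test over all probes (limma adjusted p = 0.0855, unadjusted p = 0.0323). The 2 arrays gave it similar places, above 76.0% and 72.0% of the probes.

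The gene pbs2 is named for the yeast MAP kinase kinase that phosphorylates Hog1. Its probe read 2.44 on the flip array, a 5.43-fold ratio, and 1.07 on the flop array, a 2.10-fold ratio. Both values were above 0 and above those of tcsC, atfA and sho1, but the difference of 1.37 between the arrays was larger than that of 95.9% of all probes. The mean log2 ratio was 1.755 ± 0.97 (SD, n = 2), the 80th highest of 2265, and it did not pass (limma adjusted p = 0.0742, unadjusted p = 0.0259). Its 95% interval, from 1.32-fold to 8.61-fold, was the widest of the 5. It was also the only member at least 2-fold higher on both arrays, as were 8.83% of all probes, and after each array was centred on its median the flop value was 0.97, just under that limit.

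How far the pbs2 values fell apart was looked at among the 44 probes with a log2 ratio of at least 2 on the flip array, a group chosen after the values were seen. Their median difference, flop minus flip, was 0.085, and 21 of the 44 were lower on the flop array. A drop as large as that of pbs2 was measured for 1 of the 44, pbs2 itself. By limma at an adjusted p of 0.05, 42 of these 44 passed, and pbs2 was 1 of the other 2. The mean tested includes the flip value that chose the group. Passing was thus favoured by the choice, and this count is no measure of how unusual pbs2 was. Signal intensities were not used here, so whether its spots were dim or saturated on either array was not tested.

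The MAP kinase gene sakA itself had a log2 ratio of 0.90 (1.87-fold) on flip and of 1.09 (2.13-fold) on flop. The mean of 0.995 ± 0.13 (SD, n = 2), 1.99-fold higher with a 95% interval from 1.45-fold to 2.75-fold, passed (limma adjusted p = 0.0403), so sakA rose in the direction assumed. It was above 87.8% of probes on the flip and 85.8% on the flop array, and the difference of 0.19 between its values was below the median difference of 0.28 over all probes. The call was close to the threshold. It was lost when probes measured on 1 array alone were also kept in the limma fit (adjusted p = 0.0524). It was also lost without moderation of the variances (0.296) and with the sign of the flop array turned (mean -0.095), where 0 of all probes passed in either case.

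The transcription factor gene atfA encodes the bZIP protein that works with SakA and is related to fission yeast Atf1. Its ratios were the closest of the 5, at 0.61 on the flip and 0.66 on the flop array, a mean of 0.635 ± 0.04 (SD, n = 2). That is a 1.55-fold higher level with a 95% interval from 1.15-fold to 2.09-fold. The small spread did not carry it past the threshold over all probes (limma adjusted p = 0.0623), since the moderated test takes most of its error from a variance shared by all probes and in that fit no mean below 0.745 in size passed. On each array atfA was above most probes, 81.5% on the flip and 73.1% on the flop array.

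**Figure D2:**
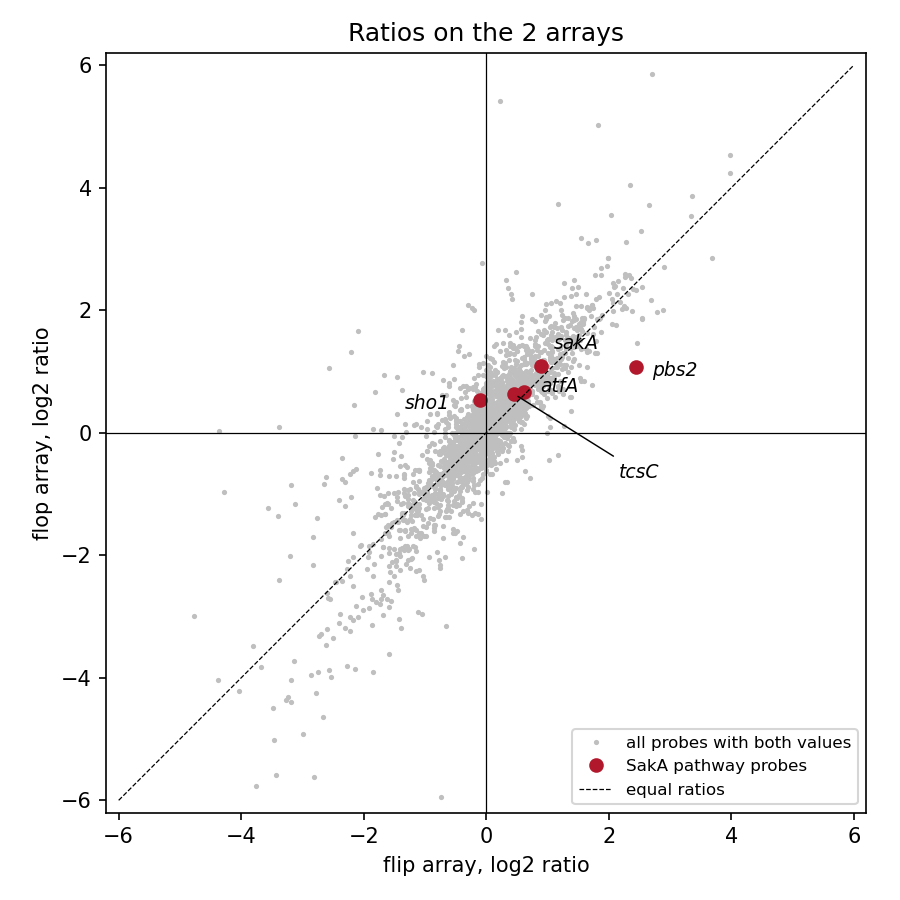
Log2 ratio on the flip array (x axis) against the flop array (y axis) for 2265 probes with both values (grey) and the 5 SakA pathway probes (red); the dashed line marks equal ratios. The sakA, tcsC and atfA probes lie near the line, sho1 above it to the left of 0, and pbs2 lies below it at 2.44 and 1.07.

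Read against all probes, 5 of 5 members had a mean ratio above 0, where 51.7% of probes did, and 4 of 5 were above 0 on both arrays, where 42.8% were. At least 1.5-fold on both arrays in the higher direction were 3 of 5, pbs2, sakA and atfA, against 17.5% of all probes. With 5 members chosen while earlier results of these data were known, these counts describe the genes and were not tested. An adjusted p under 0.10 by limma was reached in the higher direction by sakA, atfA, pbs2 and tcsC, 4 of 5, and by 21.7% of all probes. When both arrays were scaled to the same SD, 3 of 5 passed 0.05, sakA (adjusted p = 0.0127), pbs2 (0.0314) and atfA (0.0386), while the count over all probes also went up, from 557 to 878. A range of flip values from 0.4 to 1, set after the values were seen, held 369 probes, among them sakA, atfA and tcsC but not pbs2 or sho1. Of these 369, 359 were above 0 on the flop array and 20.3% passed 0.05 by limma. The flip values that set the range also enter the mean tested.

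Ordered by mean ratio, the members ran pbs2, sakA, atfA, tcsC and sho1. The step from sakA to atfA was larger than its spread, at 0.29 (flip) and 0.43 (flop) (mean difference 0.36 ± 0.10, SD, n = 2), and the values of sakA and atfA did not overlap. The step from pbs2 to sakA was not, at 1.54 on the flip and -0.02 on the flop array (0.76 ± 1.10), so the arrays did not give these kinase genes the same order. Between atfA and tcsC the differences were 0.15 and 0.03 (0.09 ± 0.08), and between tcsC and sho1 0.56 and 0.10 (0.33 ± 0.33), and in both cases the ranges overlapped. The ratio of sakA was higher than that of tcsC by nearly the same amount on each array, 0.44 and 0.46. With 2 arrays these steps have no test of their own.

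**Figure D3:**
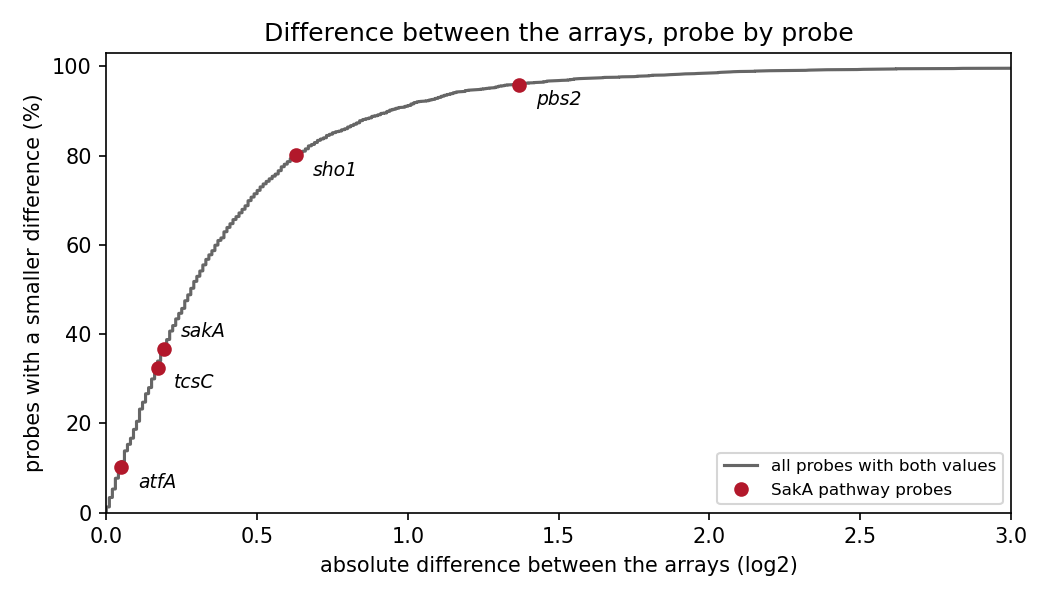
Absolute difference between the 2 arrays on the log2 scale (x axis, which ends at 3) against the percentage of 2265 probes with a smaller difference (y axis). The atfA, tcsC and sakA probes lie at 10.3%, 32.5% and 36.6% of the curve, sho1 at 80.0% and pbs2 at 95.9%.

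The genes with a symbol whose 2 values lay nearest to each member were named by Euclidean distance over the 2 arrays, which says no more than that the ratios of 1 probe were alike: 7 of the 10 genes so named had another probe with a value. Nearest to sakA were an osm1 probe (0.94 and 1.16) and a tom1 probe (0.82 and 1.16), at distances of 0.081 and 0.11. The other osm1 probes read -0.04 and 0.06, and -0.22 and -0.03, and the other tom1 probe -0.41 and -0.30, so neither gene was near sakA by its other probes. Nearest to atfA were a schA probe (0.62 and 0.63) and nctB (0.57 and 0.62), at 0.032 and 0.057. For tcsC they were an erdS probe (0.52 and 0.67) and an rps0 probe (0.39 and 0.60), and for sho1 they were an nte1 probe (-0.12 and 0.47) and an ecm33 probe (-0.02 and 0.45). The second erdS probe read 0.00 and 0.25, the second rps0 probe 0.10 and 0.02, and 1 of the further ecm33 probes -0.69 and -0.65. The remaining ecm33 probe (-0.15 and 0.69) and the second nte1 probe (0.05 and 0.65) lay nearer to sho1 than that one. The second schA probe had a flip value only, 0.25. No such close match was found for pbs2. Its nearest were azgA, a purine transporter gene, at 2.46 and 1.47, and the glycolytic gene gpdA at 1.77 and 1.30, at distances of 0.40 and 0.71, and only 3 of all probes lay as near as gpdA.

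Other genes of stress kinase signalling were sought by symbol in 3 lists of 105 symbols in all, of which 10 genes with 18 probes were on the array. Both arrays held a value for 7 of these probes, from 6 genes, and by limma 1 passed as higher, where 12.2% of all probes did, and 2 as lower, where 12.4% did, with 4 not past the threshold. Of the list of phosphorelay and HOG branch genes, 2 genes were present. The gene ptpA, whose symbol stands for a protein tyrosine phosphatase and whose part in this pathway is not established here, rose by a log2 ratio of 0.93 ± 0.04 (0.96 flip, 0.90 flop; adjusted p = 0.0403 by limma), while another of its probes read -0.49 on the flip array alone. Like that of sakA, this call was lost when probes measured on 1 array alone were added to the limma fit (adjusted p = 0.0524). The skn7 probe, for the counterpart of a yeast response regulator, had no value on either array.

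The other MAP kinase branches were represented by 5 genes, of which 4 had a probe with both values. A probe of rom2, named for a yeast activator of the GTPase Rho1 in the cell wall branch, fell by 2.455 ± 0.02 (-2.47 flip, -2.44 flop; limma adjusted p = 0.0351). A different rom2 probe read 0.12 and 0.67 (mean 0.395, adjusted p = 0.238), so the 2 probes assigned to the gene disagreed, and a further one had no value. The steA gene, a transcription factor of sexual development, had a probe at -1.51 and -1.45 (mean -1.48, adjusted p = 0.0351) that passed as lower, and a second one with a flip value only, 0.15. The cell wall branch genes rho1 and bck1 were at -0.68 and -2.03 (mean -1.355, adjusted p = 0.107) and at -0.42 and -0.26 (mean -0.34, adjusted p = 0.167). The MAP kinase gene mpkB had a flip value of 0.50 and no flop value. The median of the 5 measured probes was -1.355, which is the rho1 probe, beside 0.035 for all probes. Of these 5 probes, 3 did not pass, and 2 were the rom2 probes that disagreed, so the median gives no common direction.

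**Figure D4:**
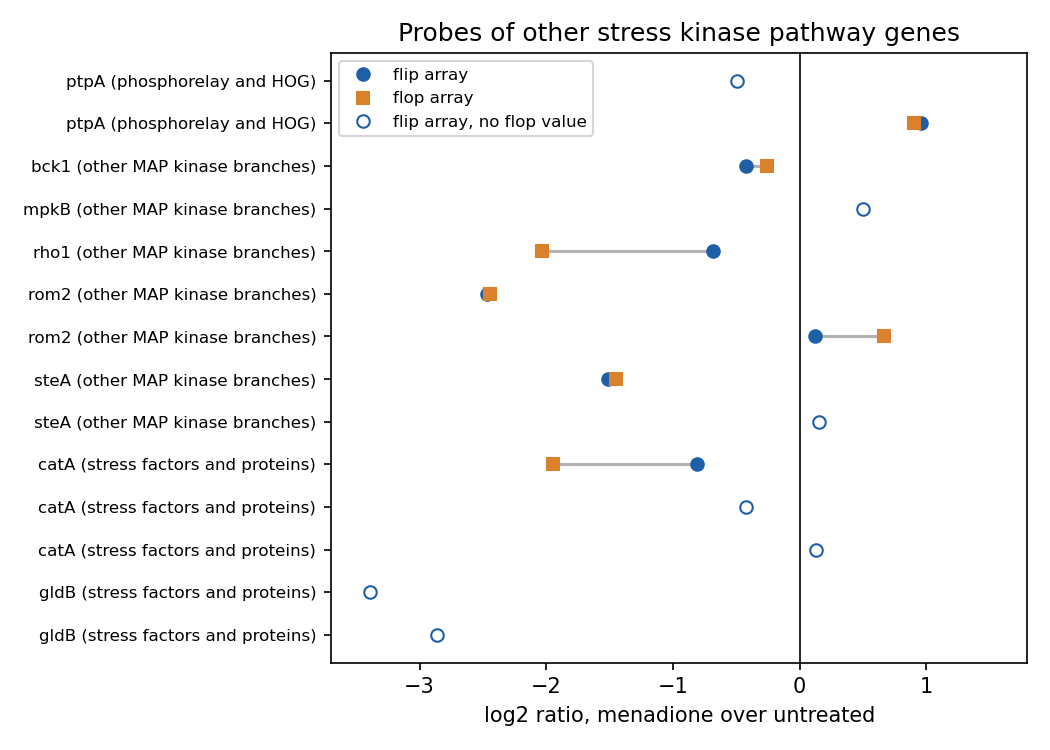
Log2 ratio of menadione over untreated (x axis) for the 14 probes of listed stress kinase pathway genes that had a value. Filled circles are the flip and squares the flop array of probes with both values, joined by a line. Open circles are flip values of probes with no flop value. For each of ptpA, rom2, steA and catA, the probes fall on both sides of 0.

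Among stress factors and proteins tied to SakA or AtfA in Aspergillus or yeast, 3 genes were on the array and 0 of 1 probes with both values passed by limma, although that 1 was below an unadjusted threshold of 0.05. That probe belonged to catA, the conidial catalase, and read -0.81 and -1.95 (mean -1.38, adjusted p = 0.0848), and the catA probes with a flip value only were at 0.13 and -0.42. The glycerol dehydrogenase gene gldB, which acts in osmotic adaptation, had 2 probes with a flip value only, at -2.86 and -3.39, and no test was possible for them. The yap1 probe, for an oxidative stress factor known from yeast, had no value. Of the 304 genes with a symbol on the array, 102 had more than 1 probe. The 5 SakA pathway genes were not among them, so that, unlike for ptpA, rom2, steA and catA, no other probe could be set beside theirs.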

How the data were processed

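Per the series' design text, the authors read arrays of duplicate cDNA spots with a GenePix 4000B scanner and GenePix Pro 3.0, and applied a blockwise LOESS normalization to the ratios with SAS (version 8). The deposited values, read as log2 ratios, are titled summaries. How spots were combined, the background correction, the rule for empty cells and the log base are not stated in the sources at hand, and the depth or signal behind each ratio is unknown.

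Of 3533 probes, 2265 had both values, 784 a flip value alone, 2 a flop value alone and 482 none. Ratios of the 2265 were tested against 0, unscaled, with lmFit and eBayes of limma (3.58.1, under R 4.3.3; 1 residual degree of freedom and 1.95 prior degrees of freedom), with Benjamini-Hochberg adjustment over all of them. The procedure was tested on simulated data. Errors are SDs over 2 arrays.

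Symbols came from the platform annotation, and the 5 entries carry the same symbols in the RefSeq table of ASM1142v1. Named genes are the 5 members, each listed gene found on the array, and the 2 nearest genes with a symbol to each member. Members and lists were chosen with earlier results of these data known. Alternatives covered centring, scaling, moderation, probe filter, gene means, direction and log base.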

Additional observations from a re-analysis of the deposited data

How the results depend on the processing

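The direction of each member's mean was the same under centring, scaling to a common SD, robust or no moderation, another probe filter, gene means and natural logarithms. With the sign of the flop array turned it was not: sho1 was at -0.315, tcsC at -0.085, sakA at -0.095 and atfA at -0.025. Over all probes, 557 past the threshold became 878 with a common SD and 305 with probes measured on at least 1 array. With probes averaged by gene and unnamed probes left out, the count became 277 genes. It became 0 without moderation (390 at an unadjusted p under 0.05) and 0 with the flop sign turned (2 unadjusted), both from the limma fit. The 1 SakA pathway probe past the threshold became 3 with a common SD, where pbs2 (1.84) and atfA (0.64) passed. It became 0 by limma with probes on at least 1 array (sakA 0.995, 4 unadjusted). Without moderation (sakA 0.995, 1 unadjusted, which was atfA) and with the flop sign turned (0 unadjusted) it was also 0. The 3 listed probes past it became 5 with a common SD, 2 with probes on at least 1 array (ptpA lost), 0 without moderation (3 unadjusted) and 0 by limma with the flop sign turned (0 unadjusted). A limit of 2-fold on each array was met by 412 probes, one of 1.5-fold by 785, one of 3-fold by 157, and 2-fold by 663 if the values are natural logarithms. The 1 such member, pbs2, became 3 at 1.5-fold, 0 at 3-fold, 0 after centring and 2 as natural logarithms; these are counts by size with no test. On a single array, 525 to 671 probes and 1 to 2 members were at least 2-fold, and no test was possible. The single-array values were -0.10 to 0.53 for sho1, 0.46 to 0.63 for tcsC, 1.07 to 2.44 for pbs2, 0.90 to 1.09 for sakA and 0.61 to 0.66 for atfA. Without the flop array sho1 was thus below 0. Why these values moved was not tested, beyond the fewer arrays or other probes that an alternative uses. Each ratio already sets menadione RNA against untreated RNA on the same array, so the test against 0 was paired by array. Both arrays belong to 1 group, so there was no further pairing to use. Signal over background is unknown, so what it limits was not tested.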
